A study of Caenorhabditis elegans with 8 samples.

Results

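The 33 genes described here encode the vacuolar proton pump (V-ATPase) and proteins of the lysosome membrane in Caenorhabditis elegans. They were chosen by name among the 20191 protein-coding genes of a deposited table of 46904 genes, as every gene called vha with a number, the pump gene unc-32, and 12 lysosome membrane genes (lmp-1, lmp-2, laat-1, ctns-1, cup-5, scav-3, glo-1, spin-1 to spin-4 and clh-6). Of the 33 genes, 21 belong to the pump, with 9 in its soluble V1 sector, 10 in its membrane V0 sector and 2 accessory subunits. The samples were 8 pools of whole CL2006 worms harvested at day 6 of adulthood, 4 grown on cpr-6 RNAi bacteria and 4 grown on EV RNAi bacteria. CL2006 worms, labelled WT for genotype, make human amyloid beta in body wall muscle from the unc-54 promoter, so both groups carried the peptide and neither is a worm without it. Both groups were fed their RNAi bacteria through a pair of generations at 20 °C, per the labels' protocols, and progeny were washed away daily. The series text calls the 4 libraries of a group biological repeats. No label says that they came from separate cultures, so a p-value here speaks only of the spread among libraries, which may be technical.

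The V-ATPase is a rotary motor. Its V1 sector splits ATP in the cytosol, and its V0 sector carries protons through a ring of proteolipids into the lysosome or other acid compartments, or across the apical membranes of the intestine, epidermis and excretory canal. The low pH it makes is what cathepsins, cpr-6 product included, need to mature and to cut proteins. LAMP proteins coat the lysosome membrane, and channels and permeases in it export ions, amino acids and lipids. The comparison addresses whether transcripts of this machinery differ in worms that lack most of their cpr-6 transcript.

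Libraries held 8184412 to 12506320 counts. The targeted gene cpr-6, a cathepsin B-like protease, stood at 81.5 ± 14.7 CPM, a count scaled to the size of its library, in cpr-6 RNAi worms and at 757 ± 22.4 CPM in EV worms (SD, n = 4 each), with no overlap. Replicate 4 of cpr-6 RNAi stood apart from the other libraries. Mitochondrial genes took 2.14% of its counts, against 0.805% to 1.16% elsewhere, and it held the highest value of 29.8% of the 10932 genes tested and the lowest of 29.0%. Where leaving it out turned the sign of a member's log2 fold change, or moved it by more than 1.5 times, the value without it is given. Markers of intestine, body wall muscle, neurons, epidermis and oocytes were all detected. Of 5 embryo markers 1 and of 6 sperm markers 3 passed the low-count filter, with summed levels of at most 4.36 and 8.13 CPM in any library.

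No V-ATPase or lysosome membrane gene passed the test for a change under cpr-6 RNAi. Of the 31 genes with enough counts to test, 0 passed edgeR's quasi-likelihood test at an adjusted p of 0.05, against 0.00915% of all genes tested, where cpr-6 was the 1 gene called. DESeq2 and limma voom also called 0 of the 31. At an unadjusted p under 0.05 edgeR gave 2 members, both higher, and 2 of 31 is to be read against 3.85% of all genes in either direction and 2.39% for higher genes. Fitted folds ran from 0.857 for lmp-2 to 1.16 for vha-8. For 26 of the 31 genes, and for 20 of the 21 pump genes, the 95% interval lay inside 1.5-fold up or down, as it did for 62.8% of all genes tested. In whole worms, fewer cells of a type and less RNA per cell cannot be told apart in any of these values.

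Pump transcripts were abundant in both groups. Summed over the 21 genes they made up 4774, 4650, 4687 and 5432 CPM in cpr-6 RNAi replicates 1 to 4, and 4475, 4314, 4817 and 4652 CPM in EV replicates 1 to 4. The groups overlapped, and the highest sum was that of cpr-6 RNAi replicate 4. In the EV libraries 10 of the 21 genes averaged more than 200 CPM and 7 averaged less than 100 CPM. The libraries sequence transcript 3′ ends, so a level counts tags near the end of a transcript and was not divided by length. For some genes the level per kilobase of the longest annotated transcript is given too. With 3′-end tags that value favours short transcripts and is not an order of abundance.

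**Figure D1:**
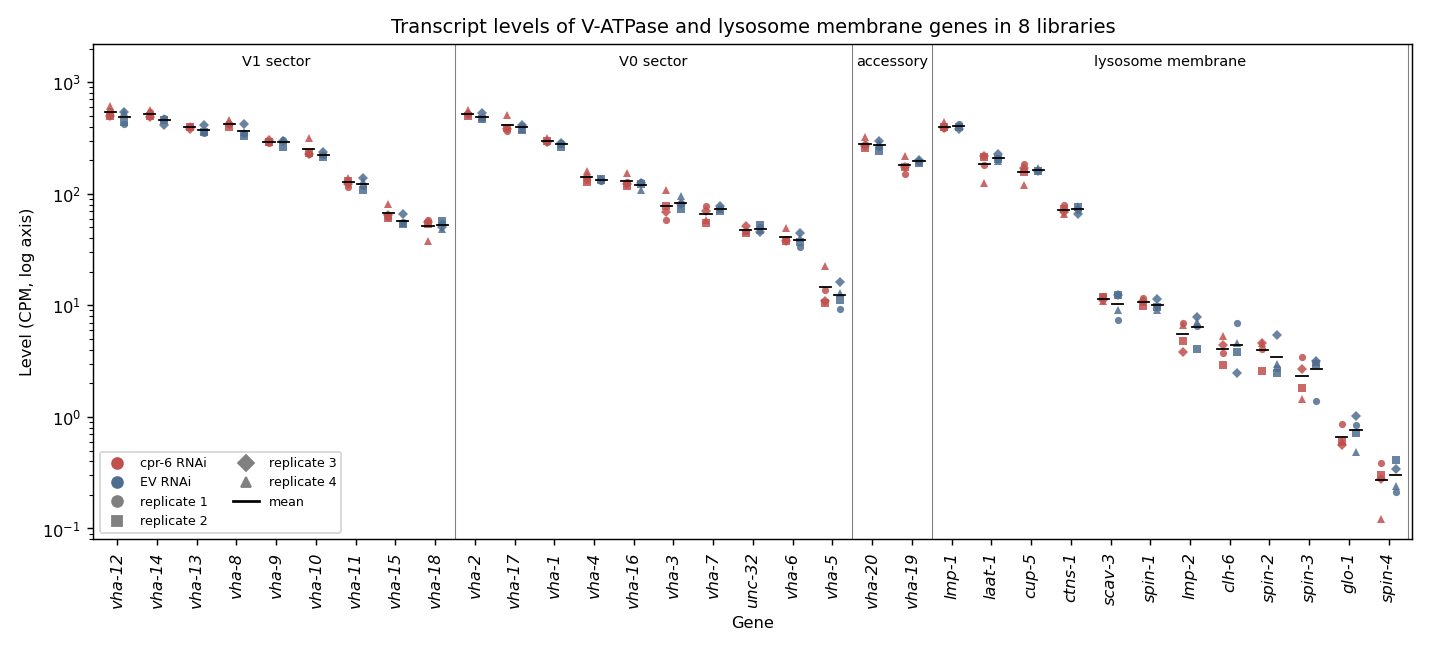
Level of each of the 33 genes (CPM, log axis) in the 4 cpr-6 RNAi libraries (red, left) and the 4 EV RNAi libraries (blue, right), with symbols for replicates and black bars for group means. Pump genes spread from 12.4 CPM for vha-5 to 488 CPM for vha-2 in EV means, and 8 of the 12 lysosome membrane genes stayed under 15 CPM there, while red and blue symbols overlap for all genes but vha-1 and vha-14.

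In the V1 sector, the genes of the catalytic head had high CPM. The B subunit gene vha-12 had 552, 497, 494 and 617 CPM in cpr-6 RNAi replicates 1 to 4, against 425, 438, 538 and 545 CPM in EV replicates 1 to 4. The groups overlapped through EV replicates 3 and 4, and the log2 fold change was 0.15 ± 0.101 (SE; edgeR adjusted p = 0.997), or 0.08 without cpr-6 RNAi replicate 4. The A subunit gene vha-13, which carries the catalytic sites, averaged 398 ± 12.5 CPM in cpr-6 RNAi and 372 ± 27.2 CPM in EV libraries (SD, n = 4 each). Per kilobase of transcript the EV means were 256 CPM for vha-12 and 159 CPM for vha-13. Those of some genes with shorter transcripts were higher, at 563 CPM for vha-9, 406 for vha-14, 348 for vha-10 and 320 for vha-8. Those of the other V1 genes, also with shorter transcripts, were lower, at 75.7 CPM for vha-11, 35.7 for vha-18 and 32.4 for vha-15. In CPM the order differed, with EV means of 486 for vha-12, 459 for vha-14, 363 for vha-8, 291 for vha-9 and 224 for vha-10.

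The gene with the smallest p among the members was vha-8 (WBGene00006917; WBcel235 chromosome IV, 6791074 to 6792629, plus strand), which encodes the E subunit of the peripheral stalk. It had 421, 398, 419 and 454 CPM in cpr-6 RNAi replicates 1 to 4, against 342, 331, 423 and 356 CPM in EV replicates 1 to 4. EV replicate 3 lay within the range of the cpr-6 RNAi libraries, so the groups overlapped. The log2 fold change was 0.22 ± 0.0881 (SE; 95% interval 0.03 to 0.41), with an edgeR unadjusted p of 0.0243 and an adjusted p of 0.997. Within replicates 1 and 2 it was 0.28, within replicates 3 and 4 it was 0.16, and without cpr-6 RNAi replicate 4 it was 0.18. In the authors' deposited table vha-8 has a log2 fold change of 0.21 and is the 1 member with an unadjusted p under 0.05 (0.0341), at an adjusted p of 1.000.

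The D subunit gene vha-14 (WBGene00010130; chromosome III, 9508074 to 9509806, plus strand) belongs to the central rotor shaft. It had 544, 499, 485 and 559 CPM in cpr-6 RNAi replicates 1 to 4, against 481, 463, 412 and 478 CPM in EV replicates 1 to 4. Every cpr-6 RNAi library lay above every EV library, although the gap between 485 and 481 CPM was small. The log2 fold change was 0.19 ± 0.0801 (SE; 95% interval 0.02 to 0.36), with an edgeR unadjusted p of 0.0337 and an adjusted p of 0.997. It was 0.14 within replicates 1 and 2, 0.23 within replicates 3 and 4, and 0.15 without cpr-6 RNAi replicate 4. Groups failed to overlap for 2 of the 31 members, both higher, and for 2.5% of all genes tested, of which 1.25% were higher and 1.24% lower.

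The stalk subunit gene vha-10 (subunit G) differed between groups mainly in 1 library. It had 226, 233, 228 and 319 CPM in cpr-6 RNAi replicates 1 to 4, against 221, 213, 237 and 225 CPM in EV replicates 1 to 4. Only cpr-6 RNAi replicate 4 stood above the EV range. The log2 fold change of 0.16 ± 0.107 (SE; edgeR adjusted p = 0.997) became 0.02 without that library. The rotor gene vha-9 (subunit F) and the stalk gene vha-11 (subunit C) had log2 fold changes of 0.01 and 0.05, with adjusted p of 0.997 in edgeR, and that of vha-11 was -0.0012 without cpr-6 RNAi replicate 4.

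A pair of genes, vha-15 and vha-18, encode the H subunit, which in yeast is needed for pump activity and silences V1 that has come loose. The gene vha-15 had 61.7, 60.2, 64.4 and 81.0 CPM in cpr-6 RNAi replicates 1 to 4, against 55.3, 53.1, 66.4 and 54.5 CPM in EV replicates 1 to 4. The gene vha-18 had 58.5, 53.7, 56.1 and 37.4 CPM in cpr-6 RNAi replicates 1 to 4, against 54.1, 57.1, 50.6 and 48.6 CPM in EV replicates 1 to 4. The groups overlapped for both, but in cpr-6 RNAi replicate 4 vha-15 was at its highest and vha-18 at its lowest of all 8 libraries. Of the CPM of the pair, vha-15 took 51.3%, 52.9% and 53.5% in cpr-6 RNAi replicates 1 to 3 and 68.4% in replicate 4, against 48.2% to 56.8% in EV libraries. Per kilobase of transcript, vha-15 averaged 37.8 and vha-18 34.9 CPM in cpr-6 RNAi libraries, against 32.4 for vha-15 and 35.7 CPM for vha-18 in EV libraries. Log2 fold changes were 0.22 ± 0.113 (SE) for vha-15 and -0.03 ± 0.127 (SE) for vha-18, both with an edgeR adjusted p of 0.997. Without cpr-6 RNAi replicate 4 these were 0.11 for vha-15 and 0.09 for vha-18. The gene F52E1.2 overlaps vha-18 by 57 bases on the opposite strand, and whether strand was used in counting is not given in the sources used here.

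In the V0 sector, subunit a anchors the pump to its membrane and exists in 4 isoforms that differ in the worm tissues they are known from. The isoform vha-7, known from epidermis and uterus, had 78.0, 54.6, 70.2 and 58.6 CPM in cpr-6 RNAi replicates 1 to 4, against 74.2, 70.4, 77.8 and 72.6 CPM in EV replicates 1 to 4. The broadly used isoform unc-32, known for its part in neurons, had 46.7, 44.3, 51.0 and 46.7 CPM in cpr-6 RNAi replicates 1 to 4, against 50.3, 52.1, 45.5 and 46.96 CPM in EV replicates 1 to 4. For vha-7, cpr-6 RNAi replicates 2, 3 and 4 lay below all EV libraries, replicate 3 only just, while replicate 1 lay just above them. For unc-32 the groups were interleaved. The log2 fold changes were -0.17 ± 0.111 (SE) for vha-7 and -0.04 ± 0.0944 (SE) for unc-32, both at an edgeR adjusted p of 0.997.

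The intestinal isoform vha-6, which acidifies the gut lumen, had 39.1, 37.5, 38.1 and 49.1 CPM in cpr-6 RNAi replicates 1 to 4, against 33.4, 37.1, 44.7 and 40.2 CPM in EV replicates 1 to 4. The isoform vha-5, known from the excretory canal and epidermis, had 13.7, 10.6, 10.9 and 22.7 CPM in cpr-6 RNAi replicates 1 to 4, against 9.36, 11.1, 16.3 and 12.9 CPM in EV replicates 1 to 4. For both, cpr-6 RNAi replicate 4 held the highest of the 8 values and the groups overlapped. The vha-5 log2 fold change of 0.21 ± 0.243 (SE; 95% interval -0.32 to 0.73) became -0.09 without that library, and its interval was the 1 among pump genes that reached past 1.5-fold. The vha-6 log2 fold change of 0.07 ± 0.12 (SE) became -0.03. Both had an edgeR adjusted p of 0.997. The gene F35H10.10 overlaps the 3′ end of vha-5 by 76 bases on the opposite strand. It had 2730 counts over all 8 libraries, against 1100 for vha-5. Whether strand was used in counting is not given in the sources used here, so the level of vha-5 is uncertain. The 6 excretory canal markers summed to 51.3 CPM in cpr-6 RNAi replicate 4, with 29.6 CPM as the lowest cpr-6 RNAi library and 30.6 to 34.9 CPM in EV libraries. The 9 epidermal markers summed to 566 CPM in that library, with 332 CPM as the lowest cpr-6 RNAi library and 331 to 412 CPM in EV libraries. The cuticle collagen gene col-19 alone gave 311 CPM of the 566, and without it the epidermal sum was 254 CPM in cpr-6 RNAi replicate 4, with 233 CPM as the lowest cpr-6 RNAi library and 227 to 254 CPM in EV libraries. Of the 9 epidermal markers, 7 were at their highest of all 8 libraries there, and lin-26 and nhr-23 were at their lowest. The part of these tissues in the vha-5 values was not tested.

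The order of the a isoforms was the same in both group means, with vha-7 first, then unc-32, vha-6 and vha-5. In EV libraries the 4 isoforms did not overlap with each other. In cpr-6 RNAi libraries vha-6 and unc-32 overlapped, through replicate 4. Per kilobase of transcript the EV means were 19.1, 14.9, 14.4 and 4.18 CPM in that order, which brought unc-32 and vha-6 close together. The isoform vha-5 took 12.8% of the CPM of subunit a in cpr-6 RNAi replicate 4, 6.42% to 7.69% in the other cpr-6 RNAi libraries and 5.59% to 8.82% in EV libraries.

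**Figure D2:**
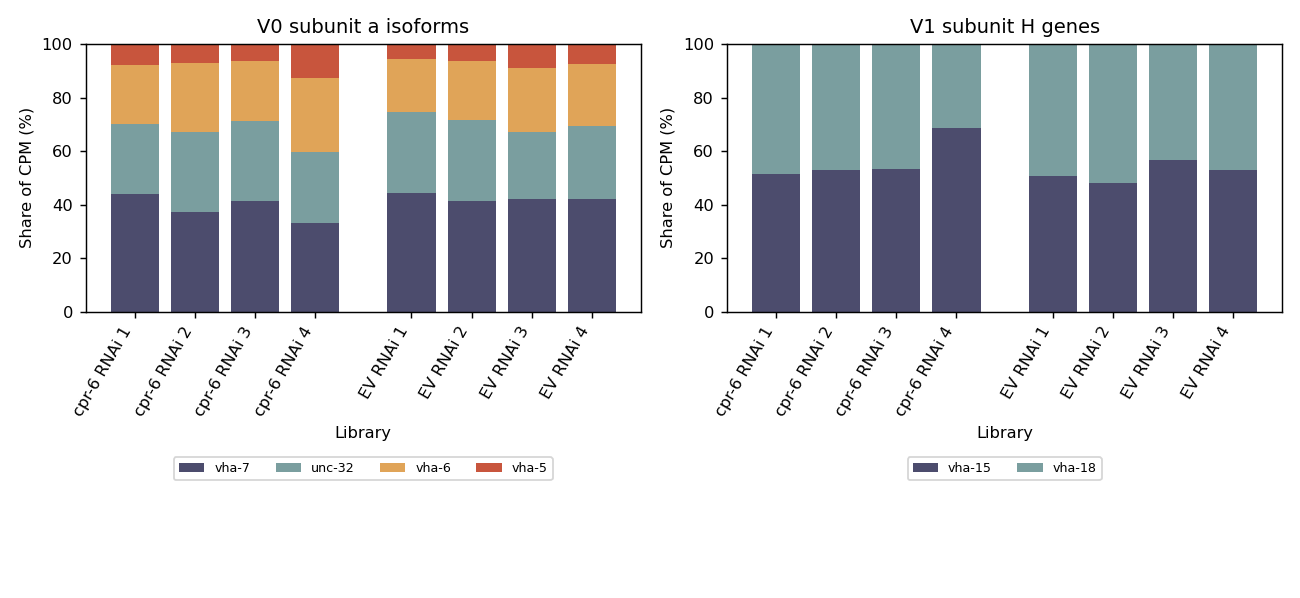
Share of CPM (%) taken by each of the 4 subunit a isoforms (left) and by the subunit H genes vha-15 and vha-18 (right) in each library, cpr-6 RNAi before EV RNAi. The largest vha-5 share (12.8%) and the largest vha-15 share (68.4%) are both in cpr-6 RNAi replicate 4, against 5.59% to 8.82% for vha-5 and 48.2% to 56.8% for vha-15 in the other 7 libraries.

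The proteolipid ring is built from the products of vha-1, vha-2, vha-3 and vha-4. The gene vha-1 (WBGene00006910; chromosome III, 9781243 to 9782057, plus strand) had 293, 298, 290 and 318 CPM in cpr-6 RNAi replicates 1 to 4, against 283, 264, 287 and 278 CPM in EV replicates 1 to 4. Its neighbour vha-2, which starts 106 bases downstream on the same strand, had 519, 498, 514 and 565 CPM in cpr-6 RNAi replicates 1 to 4, against 474, 465, 525 and 488 CPM in EV replicates 1 to 4. For vha-1 no cpr-6 RNAi library overlapped an EV library, but the groups did overlap when levels were scaled by library totals alone. For vha-2 EV replicate 3 lay within the cpr-6 RNAi range. Log2 fold changes were 0.11 ± 0.0747 (SE) for vha-1 and 0.10 ± 0.0748 (SE) for vha-2, with an edgeR adjusted p of 0.997 for each. Without cpr-6 RNAi replicate 4 that of vha-2 was 0.06.

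The gene vha-3 encodes the same proteolipid as vha-2, and reads from their shared coding sequence could be split between them or dropped, so the level of each is uncertain. It had 58.7, 77.5, 68.2 and 108 CPM in cpr-6 RNAi replicates 1 to 4, against 83.5, 72.8, 81.0 and 96.0 CPM in EV replicates 1 to 4. The cpr-6 RNAi libraries held both the lowest and the highest value. The log2 fold change was -0.10 ± 0.161 (SE; edgeR adjusted p = 0.997), and without cpr-6 RNAi replicate 4 it was -0.30 (unadjusted p = 0.0128, adjusted p = 0.930 in edgeR). The gene lies 21 bases upstream of vha-11 on the minus strand. As a share of the CPM of vha-1, vha-2 and vha-3, vha-3 made up 6.75% to 10.9% in cpr-6 RNAi and 9.07% to 11.1% in EV libraries. The gene vha-4 (subunit c″) had 134, 128, 143 and 158 CPM in cpr-6 RNAi replicates 1 to 4, against 131, 135, 133 and 133 CPM in EV replicates 1 to 4. The narrow EV range of vha-4 lay within the cpr-6 RNAi range, and the log2 fold change was 0.08 ± 0.0865 (SE; edgeR adjusted p = 0.997), or 0.02 without cpr-6 RNAi replicate 4. The d subunit gene vha-16 and the small membrane subunit gene vha-17 had log2 fold changes of 0.11 and 0.06, and 0.02 and -0.06 without cpr-6 RNAi replicate 4.

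The accessory subunits, relatives of the mammalian ATP6AP1 and ATP6AP2 proteins that help the pump to assemble, did not pass the test. The ATP6AP1 relative vha-19 (WBGene00021952; chromosome IV, 3369197 to 3373467, plus strand) had 152, 174, 174 and 219 CPM in cpr-6 RNAi replicates 1 to 4, against 193, 187, 200 and 200 CPM in EV replicates 1 to 4. Here 3 of the cpr-6 RNAi libraries lay below every EV library, and replicate 4 lay above every EV library. The log2 fold change was -0.12 ± 0.102 (SE; edgeR adjusted p = 0.997). With cpr-6 RNAi replicate 4 left out it became -0.23, with the smallest unadjusted p of any member there (0.00344) and an edgeR adjusted p of 0.651. The gene otub-4 overlaps vha-19 by 81 bases on the opposite strand. The ATP6AP2 relative vha-20 had 279, 258, 267 and 325 CPM in cpr-6 RNAi replicates 1 to 4, against 261, 243, 297 and 285 CPM in EV replicates 1 to 4, with a log2 fold change of 0.05 ± 0.0936 (SE; edgeR adjusted p = 0.997), or -0.02 without cpr-6 RNAi replicate 4.

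Over the whole pump, 16 of 21 genes had a log2 fold change above 0, with a median of 0.08, against 50.2% of all genes tested and a median of 0.00058. By sector, 8 of 9 V1 genes (median 0.15) and 7 of 10 V0 genes (median 0.08) lay above 0. Body wall muscle markers lay above 0 for 6 of 7 genes (median 0.21) and neuron markers for 8 of 10 (median 0.16). So did 3 of 3 coelomocyte markers (median 0.36) and 3 of 4 excretory canal markers (median 0.15). Counts above 0 were 6 of 10 for intestine (median 0.05) and 6 of 9 for epidermis (median 0.03). They were 2 of 3 for sperm (median 0.01) and 1 of 1 for embryo (median 0.23). Of the oocyte and germ line markers, 3 of 13 lay above 0 (median -0.05). In all these lists 0 markers passed edgeR's test. The part of these tissues in the pump values was not tested. Without cpr-6 RNAi replicate 4, 12 of 21 pump genes lay above 0 (median 0.02), against 49.4% of all genes. In that fit 8 of 9 V1 genes (median 0.09) and 4 of 10 V0 genes (median -0.04) lay above 0, and 4 members had an unadjusted p under 0.05 in edgeR, against 5.28% of all genes. These were vha-8 and vha-14 (higher) and vha-19 and vha-3 (lower), with adjusted p of 0.651 or more. With any of the other 7 libraries left out, 15 to 17 pump genes lay above 0. Within replicates 1 and 2 alone 14 of the 21 pump genes lay above 0, and within replicates 3 and 4 alone 15 did. These pairs were chosen because earlier results of these data set replicates 1 and 2 apart from 3 and 4. The p-values for their difference are therefore descriptive only. The difference of the effect between these pairs of replicates passed edgeR's test for 0 of 31 members, against 0% of all genes tested. At an unadjusted p under 0.05 it gave 1 member, clh-6, against 3.82% of all genes.

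**Figure D3:**
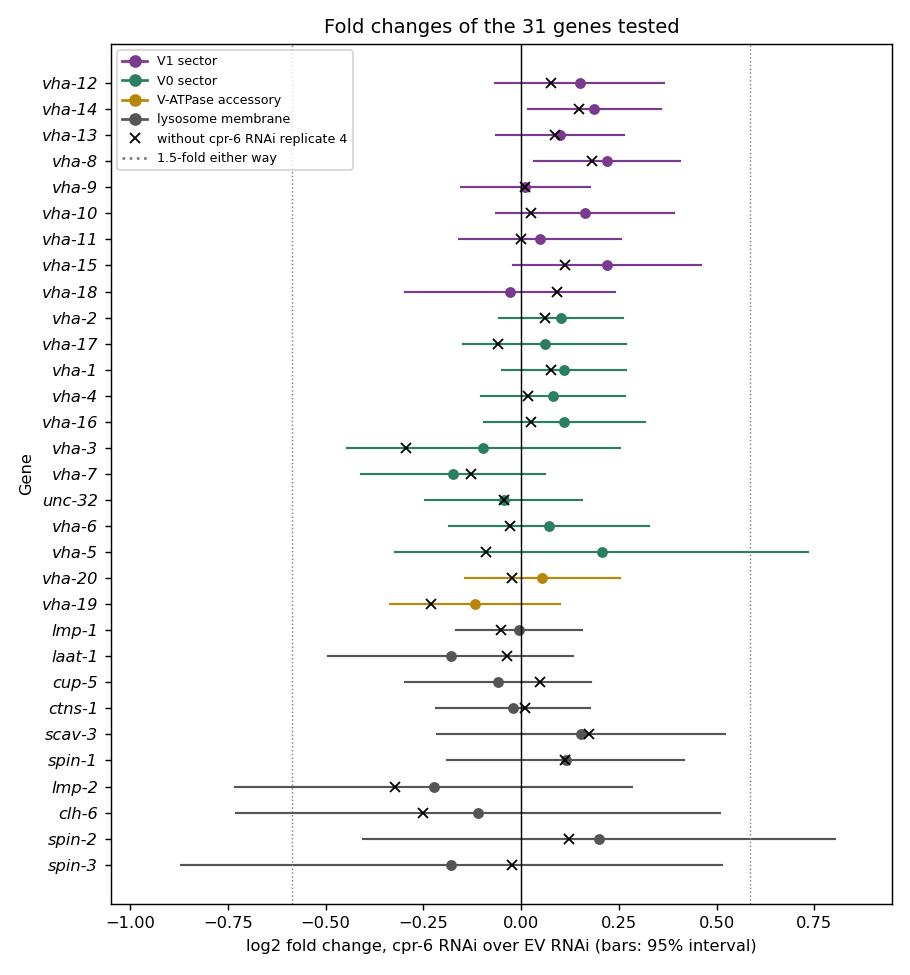
Log2 fold change, cpr-6 RNAi over EV RNAi, of the 31 genes tested (dots, with 95% intervals as bars), by sector, with crosses for the fit without cpr-6 RNAi replicate 4 and dotted lines at 1.5-fold. All pump intervals but that of vha-5 lie between the dotted lines. For vha-10, vha-17, vha-19, vha-3, vha-5 and clh-6 the cross lies well to the left of the dot. For laat-1, spin-3, vha-18 and cup-5 it lies well to the right.

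The library that stood apart was also where pump genes were highest. Of the 21 pump genes, 16 had their highest level in cpr-6 RNAi replicate 4, where 29.8% of all genes tested had theirs. The exceptions were vha-7, unc-32, vha-9, vha-13 and vha-18. Of the 10 lysosome membrane genes tested, lmp-1 was the 1 gene highest there, and cup-5 and laat-1 were lowest there. The summed level of the 10 intestine markers was highest in that library (1814 CPM), with 1404 CPM as the lowest cpr-6 RNAi library and 1446 to 1763 CPM in EV libraries. Of these markers, 4 (elt-2, elt-7, ifb-2 and act-5) were at their highest of all 8 libraries there, and 0 at their lowest. The largest part of the sum was asp-1, at 1070 CPM there and 1145 CPM in EV replicate 3. The summed level of the 13 oocyte and germ line markers was lowest there (24596 CPM), with 28281 CPM as the highest cpr-6 RNAi library and 27103 to 29056 CPM in EV libraries. Within that list 11 genes were at their lowest of all 8 libraries there, and perm-2 (5330 CPM) and perm-4 (6458 CPM) were at their highest. The part of these tissues, of the mitochondrial share and of depth in the values of this library was not tested.

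**Figure D4:**
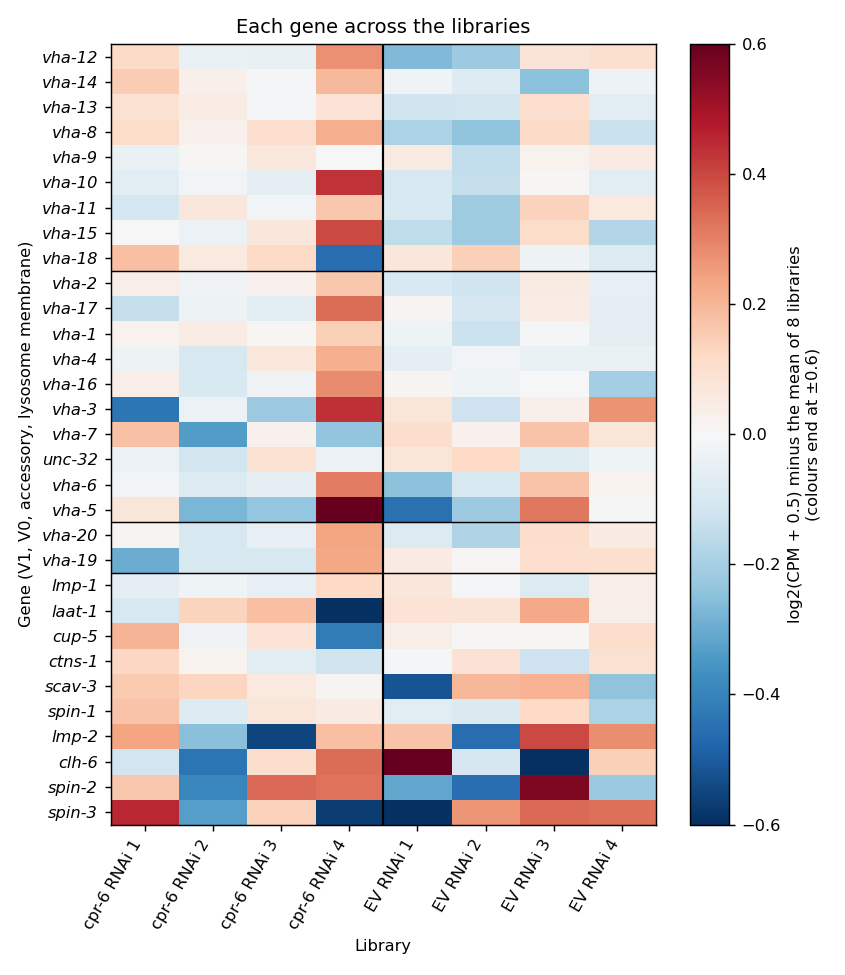
Log2(CPM + 0.5) of each gene tested minus its mean over the 8 libraries (colour, ending at 0.6 either way), with cpr-6 RNAi libraries on the left. The column of cpr-6 RNAi replicate 4 is red for 17 of the 21 pump genes. It is bluest for laat-1, spin-3, vha-18, cup-5 and vha-7, and a fainter blue for ctns-1.

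In the lysosome membrane, 4 genes averaged 72.8 CPM or more and 8 averaged less than 15 CPM in EV libraries. Of the 10 genes tested, 3 had a log2 fold change above 0 (median -0.04), and 3 to 5 did with any 1 library left out. The LAMP gene lmp-1 (WBGene00003053; chromosome X, 6376459 to 6377684, minus strand), a standard lysosome marker, had 386, 394, 387 and 435 CPM in cpr-6 RNAi replicates 1 to 4, against 420, 398, 379 and 412 CPM in EV replicates 1 to 4. The groups overlapped, and the log2 fold change was -0.01 ± 0.0754 (SE; 95% interval -0.17 to 0.16; edgeR adjusted p = 0.997), or -0.05 without cpr-6 RNAi replicate 4. Its relative lmp-2 was scarce, at 6.92, 4.80, 3.80 and 6.63 CPM in cpr-6 RNAi replicates 1 to 4, against 6.59, 4.10, 7.79 and 7.16 CPM in EV replicates 1 to 4. Its log2 fold change of -0.22 ± 0.239 (SE; edgeR adjusted p = 0.997) had an interval of -0.73 to 0.28.

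Both amino acid exporter genes were moderately abundant. The lysine and arginine transporter gene laat-1 had 181, 212, 219 and 124 CPM in cpr-6 RNAi replicates 1 to 4, against 205, 204, 227 and 198 CPM in EV replicates 1 to 4. The cystine transporter gene ctns-1 had 78.7, 73.2, 68.7 and 66.5 CPM in cpr-6 RNAi replicates 1 to 4, against 71.5, 76.7, 66.1 and 76.9 CPM in EV replicates 1 to 4. Both overlapped between groups, and cpr-6 RNAi replicate 4 was far below the rest for laat-1. Log2 fold changes were -0.18 ± 0.145 (SE) for laat-1, or -0.04 without that library, and -0.02 ± 0.0930 (SE) for ctns-1, or 0.01 without it, with edgeR adjusted p of 0.997.

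The mucolipin channel gene cup-5, whose loss enlarges lysosomes in worms, had 184, 157, 169 and 119 CPM in cpr-6 RNAi replicates 1 to 4, against 163, 160, 160 and 172 CPM in EV replicates 1 to 4. The cpr-6 RNAi libraries held the lowest and the highest value. The log2 fold change was -0.06 ± 0.112 (SE; edgeR adjusted p = 0.997), or 0.05 without cpr-6 RNAi replicate 4. The gene R13A5.15 lies within cup-5 over 1423 bases on the opposite strand.

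The remaining lysosome membrane genes were read at low depth. The LIMP-2 relative scav-3 had 12.02, 11.8, 11.2 and 10.9 CPM in cpr-6 RNAi replicates 1 to 4, against 7.34, 12.4, 12.5 and 9.01 CPM in EV replicates 1 to 4. The chloride transporter gene clh-6 had 3.75, 2.90, 4.44 and 5.31 CPM in cpr-6 RNAi replicates 1 to 4, against 6.91, 3.79, 2.48 and 4.58 CPM in EV replicates 1 to 4. For both genes the EV libraries spanned the whole cpr-6 RNAi range. Log2 fold changes were 0.15 ± 0.173 (SE) for scav-3 and -0.11 ± 0.291 (SE) for clh-6, or -0.25 for clh-6 without cpr-6 RNAi replicate 4, with edgeR adjusted p of 0.997. For clh-6 the log2 fold change was -0.68 within replicates 1 and 2 and 0.45 within replicates 3 and 4 (unadjusted p of the difference 0.0452, adjusted p 0.997 in edgeR). That split was chosen from earlier results of these data.

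The spinster genes encode permeases that clear the products of lysosomal digestion. The most abundant, spin-1, had 11.7, 9.79, 10.9 and 10.7 CPM in cpr-6 RNAi replicates 1 to 4, against 9.89, 9.73, 11.3 and 9.01 CPM in EV replicates 1 to 4. The gene spin-2 had 4.04, 2.60, 4.63 and 4.58 CPM in cpr-6 RNAi replicates 1 to 4, against 2.77, 2.46, 5.48 and 2.97 CPM in EV replicates 1 to 4. The gene spin-3 had 3.46, 1.80, 2.69 and 1.45 CPM in cpr-6 RNAi replicates 1 to 4, against 1.38, 2.97, 3.17 and 3.14 CPM in EV replicates 1 to 4. All 3 overlapped between the groups, with log2 fold changes of 0.11 ± 0.142, 0.20 ± 0.284 and -0.18 ± 0.326 (SE; edgeR adjusted p = 0.997 for each). Without cpr-6 RNAi replicate 4, spin-2 was at 0.12 and spin-3 at -0.02.

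The last 2 genes, spin-4 and glo-1, fell under the low-count filter and were not tested in the main edgeR fit. With no low-count filter all 33 genes were tested and 0 passed. The gene spin-4 had 0.38, 0.30, 0.28 and 0.12 CPM in cpr-6 RNAi replicates 1 to 4, against 0.21, 0.41, 0.34 and 0.24 CPM in EV replicates 1 to 4. The Rab GTPase gene glo-1, needed for the lysosome-related gut granules, had 0.87, 0.60, 0.56 and 0.60 CPM in cpr-6 RNAi replicates 1 to 4, against 0.85, 0.72, 1.03 and 0.48 CPM in EV replicates 1 to 4. Both rest on few reads, with 59 counts for glo-1 over all 8 libraries, and a difference between the groups was not detectable at this depth. The gene R07B1.9 lies over 4085 bases of glo-1 on the opposite strand.

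Other genes that act on the pump or at the lysosome membrane were read from lists chosen by function. Of 5 genes for V-ATPase assembly and regulation, 4 were tested and 0 passed edgeR's test. The rabconnectin gene rbc-1 stood at 30.1 ± 4.74 CPM in cpr-6 RNAi and 24.2 ± 1.39 CPM in EV libraries (SD, n = 4 each), a log2 fold change of 0.31 ± 0.123 (SE; edgeR adjusted p = 0.997), and 2 of the 4 lay above 0. Of 13 genes of lysosomal signalling, such as hlh-30 (the TFEB relative), raga-1 and let-363 (the mTOR kinase), 13 were tested, 4 lay above 0 and 9 below, and 0 passed. Their smallest p was that of the raptor gene daf-15, at -0.16 on the log2 scale (edgeR adjusted p = 0.997).

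Of 15 genes for gut granules, which are lysosome-related organelles of the intestine, 13 were tested, 5 lay above 0 and 8 below, and 0 passed edgeR's test. The AP-3 adaptor gene apd-3 had the smallest p, at 48.3 ± 2.67 CPM in cpr-6 RNAi and 59.3 ± 8.99 CPM in EV libraries (SD, n = 4 each), a log2 fold change of -0.30 ± 0.111 (SE; edgeR adjusted p = 0.997). Of 18 other genes of the lysosome and late endosome membrane, 15 were tested, 5 lay above 0 and 10 below, and 0 passed. Median log2 fold changes of these 4 lists lay between -0.04 and -0.02. The summed level of each of the 4 lists was lowest in cpr-6 RNAi replicate 4, unlike that of the pump genes. Abundant genes weigh most in a sum, and single genes went either way. In the assembly list rbc-1 and rbc-2 were at their highest of all 8 libraries there, and spe-5, lmd-3 and eak-7 at their lowest. In the signalling list hlh-30 and mxl-3 were at their highest there, and lmtr-3, lmtr-5, raga-1, ragc-1 and nprl-2 at their lowest.

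Levels of pump genes were steady between libraries of 1 group. The coefficient of variation had a median over the 21 genes of 10.7% in cpr-6 RNAi and 7.05% in EV libraries, against 15.8% in cpr-6 RNAi and 11.95% in EV libraries over all genes tested. For the 10 lysosome membrane genes tested the medians were 20.6% in cpr-6 RNAi and 17.2% in EV libraries. Abundance differs between these sets, and its part in their spread was not tested.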

How the data were processed

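RNA from pools of whole worms was sequenced with CEL-Seq2, a 3′-end method, per the labels' protocols. The authors deposited raw counts per gene, with their own fold changes and p-values, and the submitters' processing notes name cutadapt 2.10, TopHat2 2.1.1, HTSeq 0.12.4, DESeq2 1.30.1 and the build WBcel235. Settings, strand and the handling of molecular identifiers are not stated in the labels, so amplified copies may enter counts. The 8 other columns of per-sample values in the authors' deposited table were not used.

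The test was edgeR's quasi-likelihood test (edgeR 4.0.16 in R 4.3.3; two-sided, robust, treatment as the sole term) on TMM-scaled libraries. The filterByExpr step, at a minimum of 10 counts, left 10932 genes, with Benjamini-Hochberg adjustment over all of them and a threshold of 0.05. Levels are CPM on TMM-scaled library sizes. Standard errors and 95% intervals were derived from the quasi-likelihood F statistic. The fit was tested on simulated data. Alternatives used limma 3.58.1 and DESeq2 1.42.0, other scalings, filters and designs, and each library left out with the same genes kept. Coordinates are those of the deposited table, and transcript lengths come from Ensembl release 115 of WBcel235, where 7 of 33 genes have the same start and end and the models of vha-1 and vha-3 hold no 3′ UTR.

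The members and lists were chosen with earlier results of these data known. The text names all members. Every library value is given for the isoforms of subunits a, c and H, the accessory and lysosome membrane genes, the most and least abundant V1 genes, the 6 smallest p, and genes without overlap or with an unadjusted p under 0.05. For other lists, up to 3 genes with the smallest p may be named. Of 18 genes of the lysosome and late endosome membrane list, 2 symbols were not found in the table.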

Additional observations from a re-analysis of the deposited data

Results flagged for a closer look

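Within groups of 4 libraries, 62 sets of values of the 31 genes tested were searched for 1 library far from the other 3, and 6 were found. Chance gives such a gap in about 1 of 20 groups. In cpr-6 RNAi libraries the gaps were the highest values of vha-6 (49.1 CPM), vha-10 (319 CPM) and lmp-1 (435 CPM), all in replicate 4, the library that stood apart in mitochondrial share. In EV libraries they were the highest values of vha-15 (66.4 CPM) and spin-2 (5.48 CPM), both in replicate 3, and the lowest value of spin-3 (1.38 CPM), in replicate 1.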

How the results depend on the processing

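No member passed the test with RLE scaling, library totals only, no low-count filter, the strict filter (mean count of 50 or more), DESeq2, limma voom, the replicate block, the term for replicates 1 and 2 against 3 and 4, either pair of replicates alone, or any of the 8 libraries left out. Over the whole table the count of 1 gene became 28 with no low-count filter, 5 with DESeq2, 2 with the replicate block and 121 within replicates 1 and 2, and ran from 1 to 3 with a library left out (2 if cpr-6 RNAi replicate 2 is the one, 3 if it is replicate 4). The median log2 fold change of the members (0.06) ran from 0.01 (without cpr-6 RNAi replicate 4) to 0.10 (without EV replicate 3) with a library left out, and was 0.04 without EV replicate 1, 0.03 without EV replicate 2 and 0.09 without cpr-6 RNAi replicate 2. The median of all genes moved little beside it (0.00058, and -0.0017 without cpr-6 RNAi replicate 4). The median of the members was 0.05 with the replicate block. Same-numbered correlations of deviations were -0.04, 0.15, 0.06 and 0.26, and those of differently numbered libraries ran from -0.20 to 0.20. Whether equal replicate numbers pair the libraries was not tested. In 39 of 555 refits of single members the sign changed, and no member passed the test in any of them. The sign changes were not all small. For clh-6 -0.11 became 0.45 within replicates 3 and 4, and for spin-3 -0.18 became 0.27 within replicates 1 and 2. Depth limits the scarce genes most: the strict filter kept 28 of the 31 genes.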
